A study of Drosophila subpalustris with 2 samples.

Results

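Among the gene models of Drosophila subpalustris, 46 had far more RNA in one of the sequenced pools of adult flies than in the other. They were chosen by that difference: their level in replicate 2 was at least 5.6 times their level in replicate 1. The level is CPM, the sense-strand counts of a model per 1000000 sense counts of its library. Candidates were the 6333 models of blocks 1 to 4 with a mean CPM from 10 to below 1000, so 46 of 6333 (0.726%) were taken, of 17716 models in all. A block is a stretch of the count table in which the locus-tag number of the models rises without falling back, and the table has 7 of them.

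Both libraries hold polyadenylated RNA of whole adult bodies. Each pool had 10 to 20 flies, males and females together, from stocks kept at room temperature on a standard cornmeal, sucrose and yeast food, and the pools are described as biological replicates. No treatment or genotype separates them, so they form 1 group with 2 samples, and every difference below is between one pool and the other. How many flies of each pool were male, how old they were and which strain they belonged to is not stated in the labels. With 1 library on each side no ratio has a replicate check, and because the ratio chose the models no test of it is given.

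RNA of a whole fly is a sum over all organs, and in adult flies the ovary, the testis, the reproductive glands, the gut, the fat body and muscle each contribute transcripts that other organs lack. In bulk RNA of this kind, fewer cells of a type and less RNA per cell cannot be told apart. Fly genes of related function often lie side by side: in Drosophila melanogaster many eggshell, cuticle, digestive-enzyme and antimicrobial-peptide genes form such clusters, made by repeated duplication of a gene in place. The deposited tables identify models by locus tag alone and pair no tag with a gene name, so none of the models below is assigned to a family, and the whole-body label was not checked against marker genes. Whether models with neighbouring tags are separate genes, copies of each other or pieces of one gene was not analysed here.

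Assigned sense counts numbered 26141490 in replicate 1 and 25544996 in replicate 2. Several features of the libraries also differed between the replicates. The models averaging at least 1000 CPM took 42.3% of replicate 1 and 54.1% of replicate 2 and so left a smaller share of replicate 2 to all others. Multimapping reads, which are credited to no model, made up 2.00% and 3.12% of all reads, and reads outside the sense exons of any model 24.6% and 30.7%. Lower in replicate 2 were unmapped reads (11.3% and 7.15%) and reads that fit more than 1 model (0.38% and 0.22%). The part of these features in the results was not tested.

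As the choice by ratio requires, most of the models lay low among the candidates in replicate 1 and high in replicate 2. Their CPM in replicate 1 ran from 0.459 to 175.3 with a median of 7.92, and in replicate 2 from 20.9 to 1006 with a median of 88.8. The corresponding medians of all 6333 candidates were 34.9 and 24.8 CPM. Of the 46 models, 36 lay below the candidates' median in replicate 1 and 6 did so in replicate 2. Ranked by sense counts among all 17716 models, their median rank moved from 8922 in replicate 1 to 1258 in replicate 2. Their sense counts ran from 12 to 4582 in replicate 1, against 534 to 25686 in replicate 2.

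**Figure D1:**
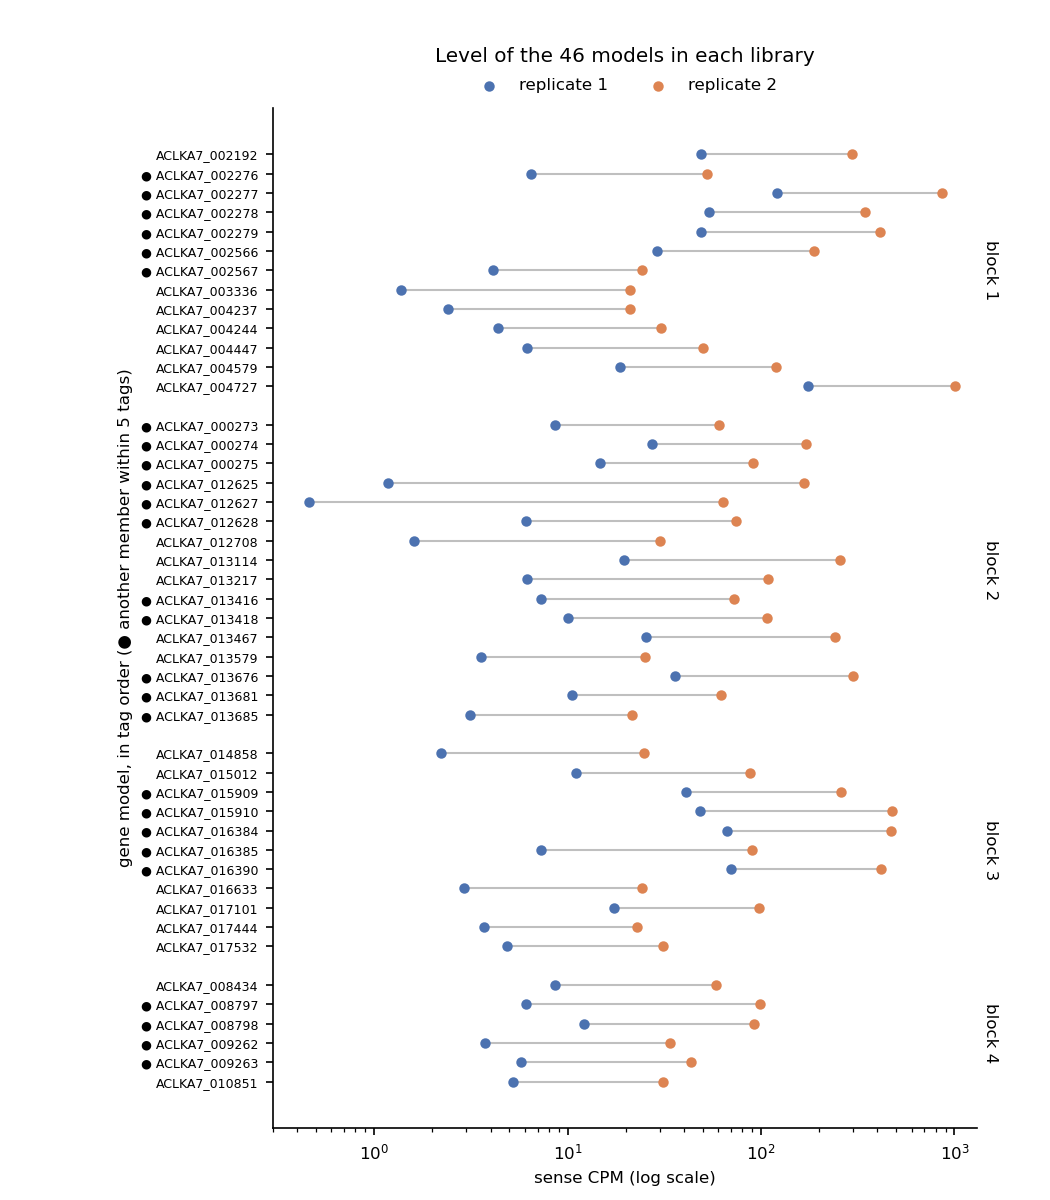
Sense CPM of each of the 46 models in replicate 1 (blue) and replicate 2 (orange) on a log axis, in tag order within blocks 1 to 4, with 1 library per point; a black dot marks a model with another of the 46 within 5 tags. The span is widest for ACLKA7_012625 and ACLKA7_012627, which have 1.19 and 0.459 CPM in replicate 1, and the highest level is 1006 CPM for ACLKA7_004727 in replicate 2.

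Together the 46 models held 26635 sense counts in replicate 1 and 195013 in replicate 2. These are 0.102% of the first library (exact binomial 95% interval 0.101 to 0.103) and 0.763% of the second (0.760 to 0.767). These intervals cover counting error only. The ratio of the summed CPM was 7.49. The ratio of single models had a median of 7.54 and quartiles of 6.38 and 9.95, while the median candidate had a ratio of 0.737 (a log2 ratio of -0.44). Ratios below 8 were found in 25 models, while 16 lay from 8 to below 16 and 5 at 16 or more.

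The cut at 5.6 falls in a continuous tail. Just inside it were ACLKA7_017101, with 17.3 CPM in replicate 1 and 97.9 in replicate 2 (a ratio of 5.66), and ACLKA7_004727, with 175.3 and 1006 CPM (5.74). Just outside were ACLKA7_004729, with 15.7 and 87.7 CPM (5.58), and ACLKA7_008799, with 9.79 and 53.9 CPM (5.50). Both excluded models have a tag within 2 of an included one. A further 43 candidates had a ratio from 4 to below 5.6.

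**Figure D2:**
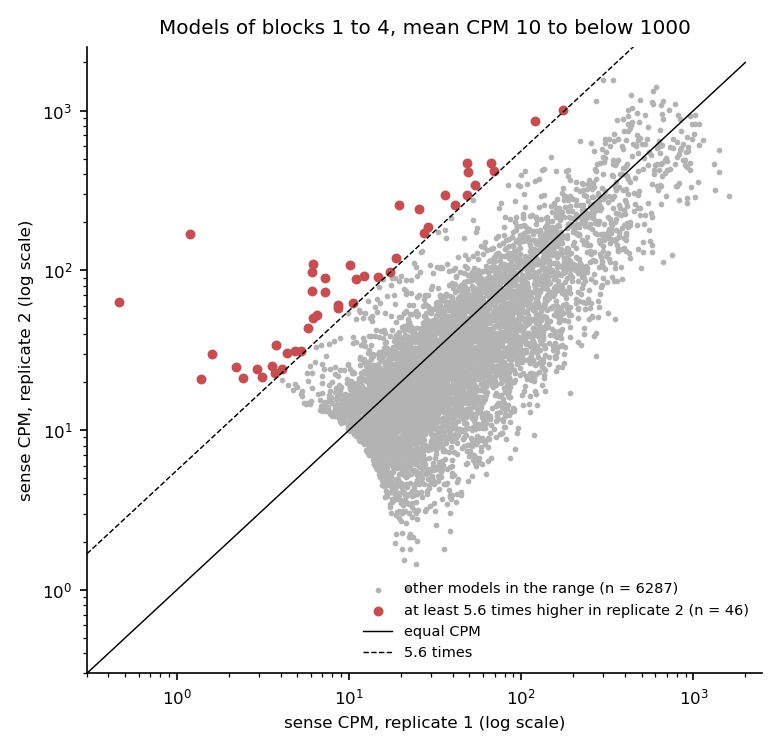
Sense CPM in replicate 2 against replicate 1, both on log axes, for the 6333 candidates; red points are the 46 chosen models, grey points the other 6287, and the lines mark equal CPM and a ratio of 5.6. The red points lie along and above the dashed line by construction, and 2 of them, with 1.19 and 0.459 CPM in replicate 1, stand apart from the rest.

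Which models and how many pass depends on how the libraries are scaled. By library totals, 218 candidates (3.44%) had a level in replicate 1 at least 5.6 times that in replicate 2, against the 46 in the other direction. When the libraries were scaled by TMM (trimmed mean of M-values), which moved all log2 ratios up by 0.54, the split was 94 towards replicate 2 and 59 towards replicate 1. All 46 models were among those 94, as they had to be when every ratio moved up by the same factor. The balance between the directions turned with the scaling.

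The chosen models covered low and high levels, and both measures below were used in choosing them. The median ratio was 7.83 in the 16 models with a mean from 10 to below 30 CPM, 7.96 in the 17 from 30 to below 100 CPM, and 7.04 in the 13 from 100 to below 1000 CPM. The share of candidates chosen was 0.520% in the lowest of these classes, 0.733% in the middle one and 1.38% in the highest. No model of blocks 1 to 4 that averaged at least 1000 CPM reached the cut: the highest ratio among those 151 models was 4.57.

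All 4 blocks contributed. Block 1 held 13 of the models (0.866% of its candidates), block 2 held 16 (1.03%), block 3 held 11 (0.765%) and block 4 held 6 (0.326%). The median log2 ratio of all candidates ranged from -0.55 to -0.38 over the blocks, so the blocks themselves differed little in their centre.

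Within the blocks, the choice did not use where the models lie in the tag order. The cut was set with earlier results of these data known, so the clusters below are a description. Of the 46, 26 (56.5%) had another within 5 tags in the same block, and 19 (41.3%) had one at the very next tag. Among the other 6287 candidates, 156 (2.48%) lay within 5 tags of one of the 46 and 32 (0.509%) at the next tag. The 26 fell into 10 clusters, of which 5 had 2 models, 4 had 3 and 1 had 4. Of all counts of the 46 models, these 26 held 63.8% in replicate 1 and 66.1% in replicate 2. The median ratio was 7.54 in clustered models and 7.52 in the 20 single ones, and the median mean CPM was 52.5 and 23.2.

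The cluster of 4 lies in block 1 and has consecutive tags. ACLKA7_002276 had 6.50 CPM in replicate 1 and 52.8 in replicate 2, and ACLKA7_002277 had 120.8 and 860.0. For ACLKA7_002278 the levels were 54.1 and 344.1 CPM, and for ACLKA7_002279 they were 48.9 and 410.7. CPM is not corrected for the length of a model, so these levels are not ranked against each other. The ratios all lay between 6.37 and 8.40. Of all 46 ratios, which the cut held at 5.6 or more, 25 lay below 8. Close ratios within a cluster thus follow partly from the choice, here and in the clusters below. Summed over the cluster, 6019 counts in replicate 1 stood against 42598 in replicate 2, a ratio of CPM of 7.24. ACLKA7_002277 has the second highest CPM of the 46, with a mean of 490.4 ± 522.7 CPM (SD, n = 2). The stretch began abruptly, as the preceding model, ACLKA7_002275, had 16.8 and 23.0 CPM, a ratio of 1.37. It ended over 2 tags: ACLKA7_002280 had 7.38 and 29.1 CPM (3.93), and the next model, ACLKA7_002281, was lower in replicate 2, with 158.9 and 80.0 CPM (0.504).

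In block 2, ACLKA7_000273, ACLKA7_000274 and ACLKA7_000275 form a cluster of consecutive tags. They had 8.57, 27.4 and 14.7 CPM in replicate 1 and 60.7, 171.8 and 91.0 CPM in replicate 2. Their ratios were 7.09, 6.27 and 6.20. The 3 models before them, from ACLKA7_000270 to ACLKA7_000272, had ratios of 3.51, 4.09 and 4.01 and so were also higher in replicate 2. On the other side ACLKA7_000276 had 76.0 and 34.6 CPM, a ratio of 0.455. The stretch of higher levels therefore ended between 2 neighbouring tags on that side and tapered on the other.

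The widest ratios of all belong to another cluster of block 2. The level of ACLKA7_012625 was 1.19 CPM (31 counts) in replicate 1 and 167.7 CPM (4283 counts) in replicate 2. That is a ratio of 141.4, with a 95% counting interval from 99.5 to 208.4. For ACLKA7_012627 the levels were 0.459 CPM (12 counts) and 63.8 CPM (1629 counts), a ratio of 138.9 (79.3 to 269.4). In rank among all models the first moved from 11931 to 704 and the second from 12605 to 1686. No other of the 46 exceeded a ratio of 18.7. The third model, ACLKA7_012628, had 6.12 and 74.5 CPM, a ratio of 12.2 (10.4 to 14.4). Between the first 2 lies ACLKA7_012626, which had 14 counts in replicate 1 and 8 in replicate 2 and so did not share the difference. The models after the cluster were higher in replicate 1: ACLKA7_012629 had 18.7 and 8.57 CPM, and ACLKA7_012630 had 27.2 and 5.68 CPM.

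A looser cluster in block 2 runs from ACLKA7_013676 to ACLKA7_013685 and mixes models that shared the difference with models that did not. ACLKA7_013676 had 36.0 CPM in replicate 1 and 297.2 in replicate 2, a ratio of 8.26. ACLKA7_013681 had 10.5 and 62.1 CPM (5.91), and ACLKA7_013685 had 3.14 and 21.5 CPM (6.86). Of the 7 models between them, ACLKA7_013680 (2.87 and 12.1 CPM), ACLKA7_013682 (29.7 and 107.9 CPM) and ACLKA7_013684 (20.1 and 51.0 CPM) were at least 2-fold higher in replicate 2. ACLKA7_013683 had 384.1 and 400.8 CPM and was almost level. ACLKA7_013677 had 7 and 9 counts, and ACLKA7_013678 and ACLKA7_013679 had 0 in both libraries, where a 0 could hide 3 counts, equal to 0.115 CPM in the first library and 0.117 CPM in the second.

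Block 3 holds the cluster with the longest flank. ACLKA7_016384 had 67.1 CPM in replicate 1 and 472.1 in replicate 2, a ratio of 7.04, and ACLKA7_016385 had 7.27 and 90.0 CPM, a ratio of 12.4. ACLKA7_016390 had 69.6 and 417.9 CPM, a ratio of 6.01. The model before the first of these, ACLKA7_016383, had the highest CPM at this site, with 297.7 and 1560 CPM, and its ratio of 5.24 left it just under the cut. ACLKA7_016386 had 21 and 410 counts, a ratio of 20.0 (12.9 to 32.6), but its mean CPM was below 10. From ACLKA7_016380 to ACLKA7_016386, 7 consecutive models all had ratios of 3.09 or more. ACLKA7_016387 (5.36 and 8.46 CPM), ACLKA7_016388 (7.04 and 4.93 CPM) and ACLKA7_016389 (5 and 6 counts) separate this stretch from ACLKA7_016390 and did not reach 2-fold.

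The 5 clusters of 2 models are named here after their values were seen. ACLKA7_002566 had 28.9 CPM in replicate 1 and 186.8 in replicate 2, and ACLKA7_002567 had 4.09 and 24.1. ACLKA7_013416 had 7.27 and 72.7 CPM, and ACLKA7_013418 had 10.1 and 107.8. Those ratios were 6.46 and 5.89 in the first pair and 10.0 and 10.7 in the second. The model between the second pair, ACLKA7_013417, had 6.77 and 2.35 CPM and was lower in replicate 2. ACLKA7_015909 had 41.1 and 257.9 CPM, and ACLKA7_015910 had 48.4 and 472.8. This pair is bordered by models of the opposite direction: ACLKA7_015911 had 248.3 CPM in replicate 1 and 49.8 in replicate 2, and ACLKA7_015912 had 168.5 and 33.5. In block 4, ACLKA7_008797 had 6.12 and 98.2 CPM and ACLKA7_008798 had 12.2 and 92.1. ACLKA7_009262 had 3.75 and 33.9 CPM, and ACLKA7_009263 had 5.78 and 43.5. The ratios were 16.1 and 7.55 in the first of the block 4 pairs and 9.04 and 7.54 in the second.

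**Figure D3:**
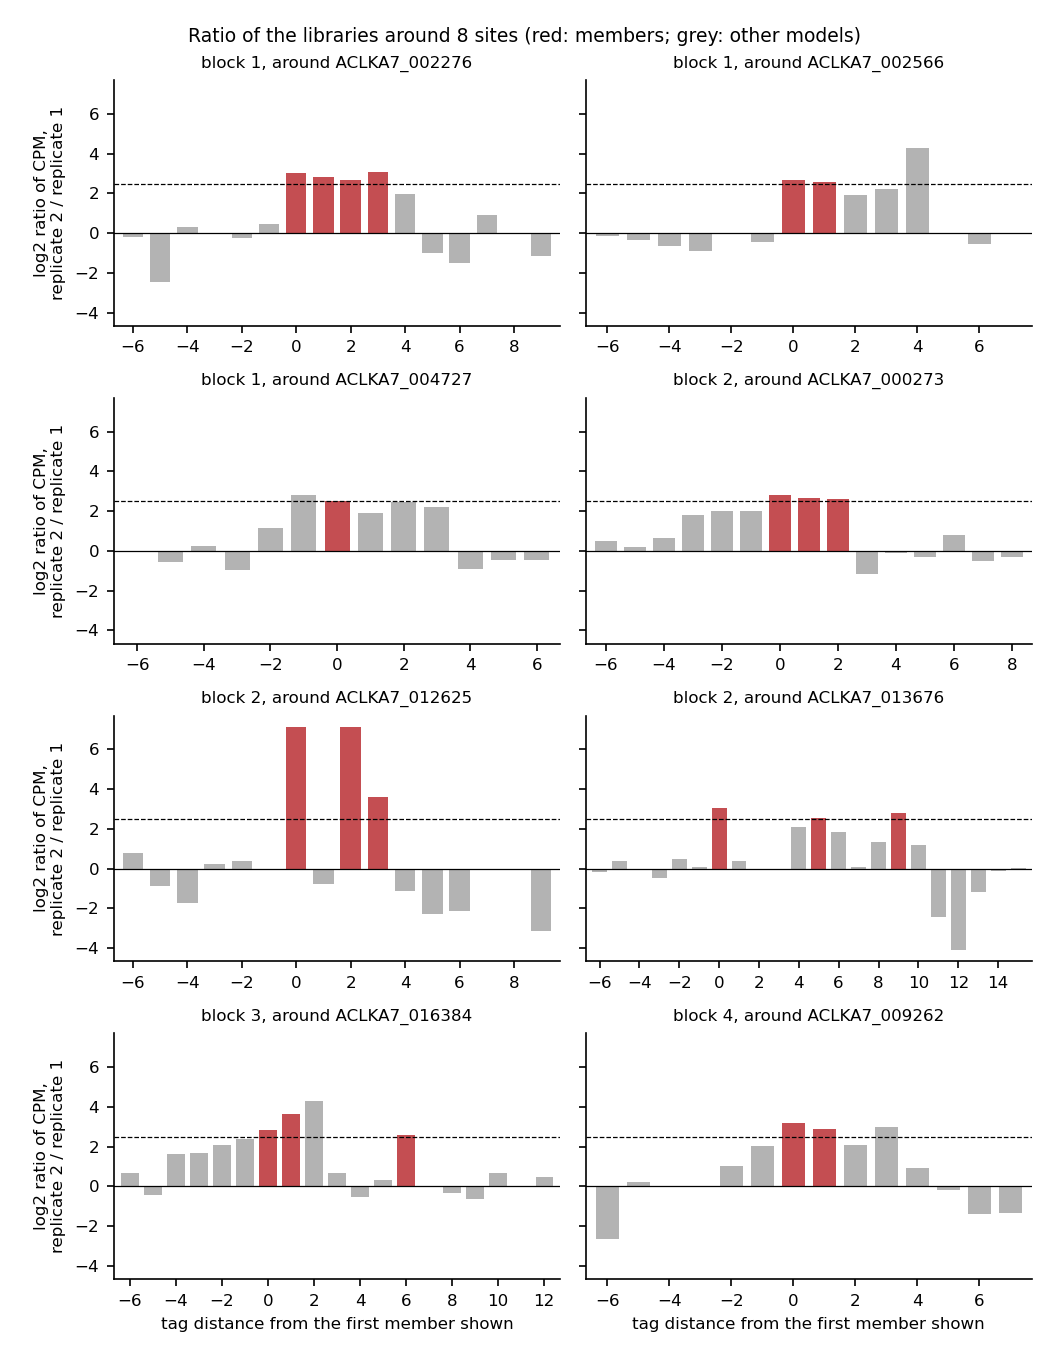
Log2 ratio of CPM, replicate 2 over replicate 1, of single models against their tag distance from the first chosen model of a site, for 8 sites (clusters of 3 or more, or runs of 5 or more); red bars are chosen models, grey bars other models, the dashed line marks a ratio of 5.6, and models with fewer than 10 counts over both libraries or 0 in replicate 1 are not drawn. Because the sites were picked for clusters or runs, the runs seen here are partly built in. At most sites the red bars stand in a run of positive grey bars that ends within a few tags, as from ACLKA7_016380 to ACLKA7_016386. In contrast, ACLKA7_012626 and the models after ACLKA7_012628 have negative bars.

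The difference extended past the chosen models. A run was defined, after the values had been seen, as consecutive tags whose models each had 10 or more counts over both libraries and a ratio of at least 2. Of 10773 models of blocks 1 to 4 with such counts, 645 (5.99%) had that ratio. Of the 46, 31 (67.4%) were in a run of 2 or more models and 20 (43.5%) in a run of 3 or more. Of the 599 other models with that ratio, 176 (29.4%) were in a run of 2 or more and 79 (13.2%) in a run of 3 or more. The other models are unlike the 46 in level, as only 321 of the 645 were in the candidate range. A model of the 46 often has chosen neighbours, so these shares follow partly from the clusters above. With single models counted as runs there were 517 runs, of which 35 contained at least 1 of the 46. Of the 25 runs of 3 or more, 11 did so. All 4 runs of 6 or more also did, the longest having 7 models. A longer run has more places for a chosen model, so these shares are partly built in.

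Several runs consist mostly of models outside the chosen set. The model with the highest CPM of the 46, ACLKA7_004727, with a mean of 590.4 ± 587.1 CPM (SD, n = 2), has no chosen neighbour within 5 tags but lies in a run of 6. Its neighbours ACLKA7_004728 (24.8 CPM in replicate 1 and 92.2 in replicate 2), ACLKA7_004729 (15.7 and 87.7) and ACLKA7_004730 (14.5 and 66.0) had ratios of 3.73, 5.58 and 4.56. The run starts with ACLKA7_004725 (37 and 81 counts) and ACLKA7_004726 (16 and 111 counts), and the models on either side of it, ACLKA7_004724 and ACLKA7_004731, had ratios of 0.515 and 0.523. Around ACLKA7_009262 the run also had 6 models, from ACLKA7_009260 to ACLKA7_009265, with ratios from 2.07 to 9.04. After ACLKA7_002567 came 3 models with few counts: ACLKA7_002568 had 4 and 15 counts, ACLKA7_002569 had 38 and 175, and ACLKA7_002570 had 1 and 19, a ratio of 19.4 with a counting interval of 3.09 to 807.9.

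Some models too low for the candidate range had ratios as high as the chosen ones. In blocks 1 to 4, 114 of 10773 models with 10 or more counts over both libraries (1.06%) had a ratio of at least 5.6. Of these, 68 had a mean CPM below 10. Of the 68, 9 (13.2%) lay within 5 tags of one of the 46 and 59 did not. Among the 4372 other models outside the candidate range with 10 or more counts, 102 (2.33%) lay that near. ACLKA7_016634, next to ACLKA7_016633, had 2 and 102 counts, a ratio of 52.2 with a counting interval of 14.1 to 436.8. ACLKA7_012710, 2 tags after ACLKA7_012708, had 0 counts in replicate 1 and 73 in replicate 2, which is at least 24.9-fold higher when 3 counts are set for the 0. ACLKA7_004578, next to ACLKA7_004579, had 59 and 384 counts, a ratio of 6.66. These models were singled out after their values were seen.

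Away from the chosen models the excess faded within a few tags. The share of all 6333 candidates, the 46 included, that were at least 2-fold higher in replicate 2 was 5.07%. At a distance of 1 tag, 13 of 32 other candidates (40.6%) were so. At 2 tags there were 5 of 34 (14.7%), at 3 tags 3 of 29 (10.3%), at 4 tags 1 of 29 (3.45%) and at 5 tags 2 of 32 (6.25%). Among the 6002 candidates more than 10 tags away the share was 4.13%. The median log2 ratio was 0.44 at 1 tag, -0.01 at 2 tags and -0.32 at 3 tags, against -0.46 in the distant models. Over all 156 candidates within 5 tags the median was -0.15, and 0.40 with TMM scaling, which moves all these medians up by the same 0.54. It was 0.06 in the 59 near clustered models and -0.23 in the 97 near single ones. These neighbours were measured in the same contrast as the choice, so the values are a description.

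**Figure D4:**
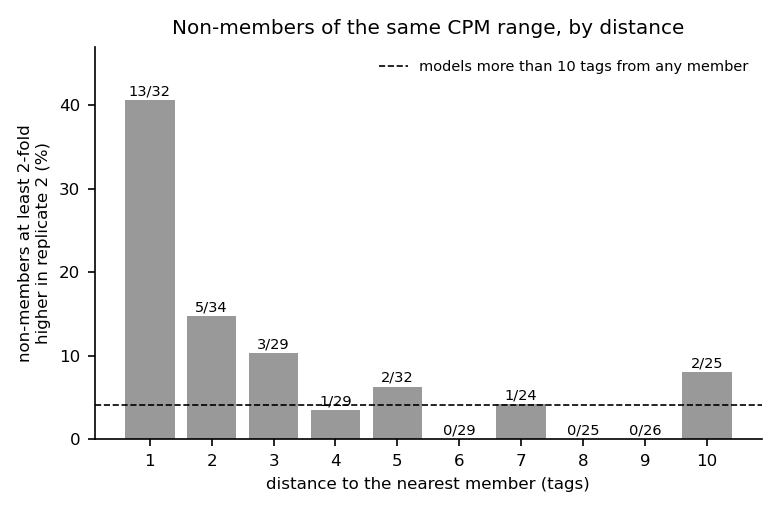
Percentage of other candidates that were at least 2-fold higher in replicate 2, by distance in tags to the nearest of the 46 models; the numbers above the bars are models over all candidates at that distance, and the dashed line is the 4.13% of candidates more than 10 tags away. The bar at 1 tag stands at 40.6%, and from 4 tags on the bars lie between 0 and 8.0%.

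Neighbours in the opposite direction were also present. Of the 46 models, 3 (6.52%) had a candidate at least 5.6 times higher in replicate 1 within 5 tags, against 1020 of the other 6287 candidates (16.2%). Other candidates within 5 tags of the 46 were at least 2-fold lower in replicate 2 in 40 of 156 cases (25.6%). Among all candidates, the 46 included, the share was 30.5%. All these shares use the same contrast as the choice and are a description. The other 6287 candidates also include the 218 models of the opposite direction themselves. The 3 are ACLKA7_013217, ACLKA7_013467 and ACLKA7_016633, named after their values were seen. ACLKA7_013467 had 25.3 CPM in replicate 1 and 242.6 in replicate 2, while ACLKA7_013470, 3 tags on, had 32.0 and 2.55 CPM.

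The 20 single models had 36 to 4582 counts in replicate 1 and 534 to 25686 in replicate 2, with ratios up to 18.7. Of these, 9 were in a run with a neighbour that was not chosen. The other 11 had no model at the next tag that met the run limits. Some of the 11 had such a model 2 tags away. Ratios of 12 or more occurred in 4 single models, named after their values were seen. ACLKA7_012708 went from 42 to 767 counts between replicates 1 and 2, a ratio of 18.7. ACLKA7_013217 had 6.16 and 108.8 CPM (17.7), and its neighbours ACLKA7_013216 and ACLKA7_013218 had ratios of 0.539 and 0.358. ACLKA7_003336 had 1.38 and 20.9 CPM (15.2), and ACLKA7_013114 had 19.5 and 257.0 CPM (13.2). All other single models had ratios of at most 11.3. By block, 7 single models were in block 1, 5 in block 2, 6 in block 3 and 2 in block 4.

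Summed over the 46 models, antisense counts did not follow sense counts. For most single models this cannot be judged: 8 of the 46 had 10 or more antisense counts in either library, and 3 in both. Summed antisense counts were 376 in replicate 1 and 277 in replicate 2, a ratio of CPM of 0.754, against 7.49 for the sense counts. The sense share of their strand-specific counts was accordingly 98.61% in replicate 1 and 99.86% in replicate 2, with 95% exact binomial intervals of 98.46 to 98.74 and 99.84 to 99.87 and a mean of 99.23% ± 0.88 (SD, n = 2). In the other 6287 candidates it was 99.16% and 98.99%. Antisense counts exceeded 1% in 15 of the 46 models in replicate 1 and in 1 model in replicate 2. The same count is not given for the other candidates. The choice took models with few sense counts in replicate 1 and many in replicate 2. The change in sense share and in this count is therefore partly built in. None of the 46 had more antisense than sense counts in both libraries. The choice required many sense counts in replicate 2, so this too is partly built in. It was not counted for the other candidates.

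A single model supplied the largest part of the antisense counts in replicate 1. ACLKA7_013676 had 197 antisense counts in replicate 1 and 69 in replicate 2, while its sense counts were 940 and 7591. Its antisense share was thus 17.3% in replicate 1 and 0.901% in replicate 2. Without it the antisense sums were 179 and 208, a ratio of CPM of 1.19. ACLKA7_004727 had 63 and 66 antisense counts, almost the same number beside 4582 and 25686 sense counts. In each of the other 44 models antisense counts were at most 20 in either library. Their antisense sums were 116 in replicate 1 and 142 in replicate 2, a ratio of CPM of 1.25.

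In a few models part of the reads was shared with a neighbouring model on the opposite strand. Such reads count for a strand but are ambiguous, and so missing, in the unstranded column. For ACLKA7_016390, 15 counts were missing in replicate 1 and 128 in replicate 2, and exactly the same numbers were missing for ACLKA7_016389, which had 25 and 152 antisense counts. For ACLKA7_002192, 33 and 168 were missing, the same as for ACLKA7_002191, which had 36 and 188 antisense counts. The antisense counts of these 2 neighbours were higher in replicate 2. Most of them are the shared reads, which also count as sense for the chosen models, so this is largely not a separate observation. ACLKA7_013676 shared 9 and 4 counts with ACLKA7_013675. The shared reads were a small part of the chosen models' counts, and with unstranded counts all 46 models passed the cut again.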

How the data were processed

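Polyadenylated RNA of 2 pools of whole adult Drosophila subpalustris was prepared with a directional kit from 1 µg of RNA, per the labels' protocols. Reads were handled with fastp and STAR 2.7.11b, per the submitters' processing notes, and the gene models come from BRAKER 3.0.6 with these reads as evidence, per the series description. The labels state no settings. The authors deposited raw counts per model in 3 columns (unstranded and each strand), with 4 rows of totals, which were kept out of library sizes. The last column, which has the larger sum, was taken as the sense strand; sums were 26141490 and 25544996.

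CPM used these sums. Models were chosen at a ratio of 5.6 and a mean CPM from 10 to below 1000 in blocks 1 to 4. The cut, the members and the lists were chosen with earlier results of these data known. Chosen models were chained into clusters by steps of up to 5 tags. Named are the models of clusters of 3 or more with the models between them, the 2 with the largest ratio, the 2 of highest mean CPM and the 2 on each side of the cut; all other named models, such as those flanking a cluster, in runs or sharing reads, were named after their values were seen. No test was run, because the ratio made the choice. Intervals are 95% exact binomial, also for ratios of 2 counts, and cover counting error only, since reads carry no molecular identifiers. TMM came from edgeR 4.0.16 and size factors from DESeq2 1.42.0, in R 4.3.3; other steps used Python 3.11.15, pandas 2.3.3 and scipy 1.17.1. The choice of models and the chaining were run on simulated counts, with planted models far above the cut and all others level. This checks the code only and says nothing about models near the cut.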

Additional observations from a re-analysis of the deposited data

How the results depend on the processing

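With TMM or DESeq2 size factors, either of which moved the log2 ratios by 0.54, 94 models passed the cut and 46 of them were clustered. With a cut at 4 there were 89 (45 clustered), and with a cut at 8 there were 21 (7 clustered). Without a CPM minimum there were 114 (62 clustered), and with a minimum of 50 CPM 22 (9 clustered). These counts move because each setting admits more or fewer models. Library totals without the 100 most abundant models gave 62 (36 clustered), unstranded counts 47 (26 clustered), and no CPM maximum the same 46. The clustered share ran from 33.3% to 58.1% over these settings. The share of other candidates near a chosen model is not given for them. It can rise with the number chosen, so the 2.48% of the main setting is not their baseline. Clustered models numbered 22 within 2 tags, 28 within 10 and 26 when steps were counted in rows of the table. The median log2 ratio of neighbours changed sign, from -0.15 to 0.11 within 2 tags and to 0.40 with TMM, and was -0.27 within 10 tags and -0.12 with a minimum of 1 CPM. The sense share was 99.24% without the model of highest CPM, 98.61% in replicate 1 alone and 99.86% in replicate 2 alone. The median CPM ranged from 7.92 without replicate 2 to 88.8 without replicate 1. Models in runs of 3 or more numbered 17 to 21 under other run limits, which were chosen after seeing the data. No paired analysis was possible because the series has 1 group and no result comes from a test. The choice of models needs both libraries, so leaving one out gives no count. Among the 46, low counts limit the ratios of ACLKA7_012625 and ACLKA7_012627 most.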
